A study of Mus musculus with 8 samples.

Results

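The 8 genes described here encode proteoglycans or enzymes and relatives grouped with them: the proteoglycan cores Vcan, Cspg4, Hspg2, Bgn and Dcn, the immunoglobulin-superfamily gene Igsf10, and the enzyme genes Chst14 and Galnt4. They were taken by gene name from the lists of m6A peaks of mouse gastrocnemius, a calf muscle. They are 8 genes, of which 6 carried a peak, set against 5987 gene names with a peak in at least 1 list. The list of genes was drawn up with their calls in innervated and denervated muscle known, so their differences between these groups are given as a description, with no test.

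A proteoglycan is a core protein that carries long sulfated sugar chains, the glycosaminoglycans, made of chondroitin, dermatan or heparan sulfate. In muscle, proteoglycans lie in the basement membrane around each fibre and in the connective tissue between fibres, where they bind growth factors and other matrix proteins. m6A, N6-methyladenosine, is a methyl mark on adenosines within messenger RNA that is read by YTH-domain proteins and is known for its place in long internal exons and around the stop codon.

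All muscles came from 10-week-old male C57BL/6 mice. The denervated group was gastrocnemius taken 14 days after denervation, and the innervated group was the muscle of the opposite leg, which the labels call untreated. The opposite leg of an operated animal is not a muscle of an unoperated animal, and the labels do not say whether the replicate numbers mark separate animals. Each group had 2 immunoprecipitated (IP) libraries, in which RNA was captured with an antibody against m6A, and 2 input libraries of uncaptured RNA.

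The 4 lists, 1 per IP library, held 9327 to 10300 peaks in 4153 to 4647 genes. Read counts were not analysed here, so the depth and the level of each transcript are unknown, and the absence of a peak does not show that a transcript was unmethylated. RNA came from whole muscle, in which fewer cells of a type and less RNA per cell cannot be told apart. Of 12 muscle fibre markers, such as Ttn and Acta1, 0 had a peak in any list. Of 7 fibroblast markers 5 had a peak, of 5 pericyte and smooth muscle markers 4, of 6 endothelial markers 5, of 5 macrophage markers 1, of 5 Schwann cell markers 3 and of 3 satellite cell markers 2. Denervated only means here that a gene or region was found in both denervated libraries but in no innervated one, and innervated only means the reverse. Of these markers 1, the Schwann cell gene Ngfr, was denervated only and 0 were innervated only. The part of other cell types in the results was not tested.

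In innervated muscle the 8 genes together had 33 peaks in replicate 1 and 39 in replicate 2, and in denervated muscle they had 42 and 52. The groups did not overlap, with means of 36 ± 4.24 and 47 ± 7.07 peaks (SD, n = 2). Per 10000 peaks of a list, these were 35.4 and 37.9 peaks in innervated and 42.8 and 54.8 in denervated muscle. These totals include Chst14 and Galnt4, which had 0 peaks in both innervated libraries and 2 and 3 in denervated replicate 1. Without these genes the groups overlap by either measure, so nothing is read from the separation. The bases covered by the peaks did overlap between the groups. They came to 8824 and 10577 bases in the innervated libraries and 9321 and 13481 in the denervated ones. The denervated mean was 1700.5 bases above the innervated mean, but without denervated replicate 2 the difference was −379.5 bases.

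**Figure D1:**
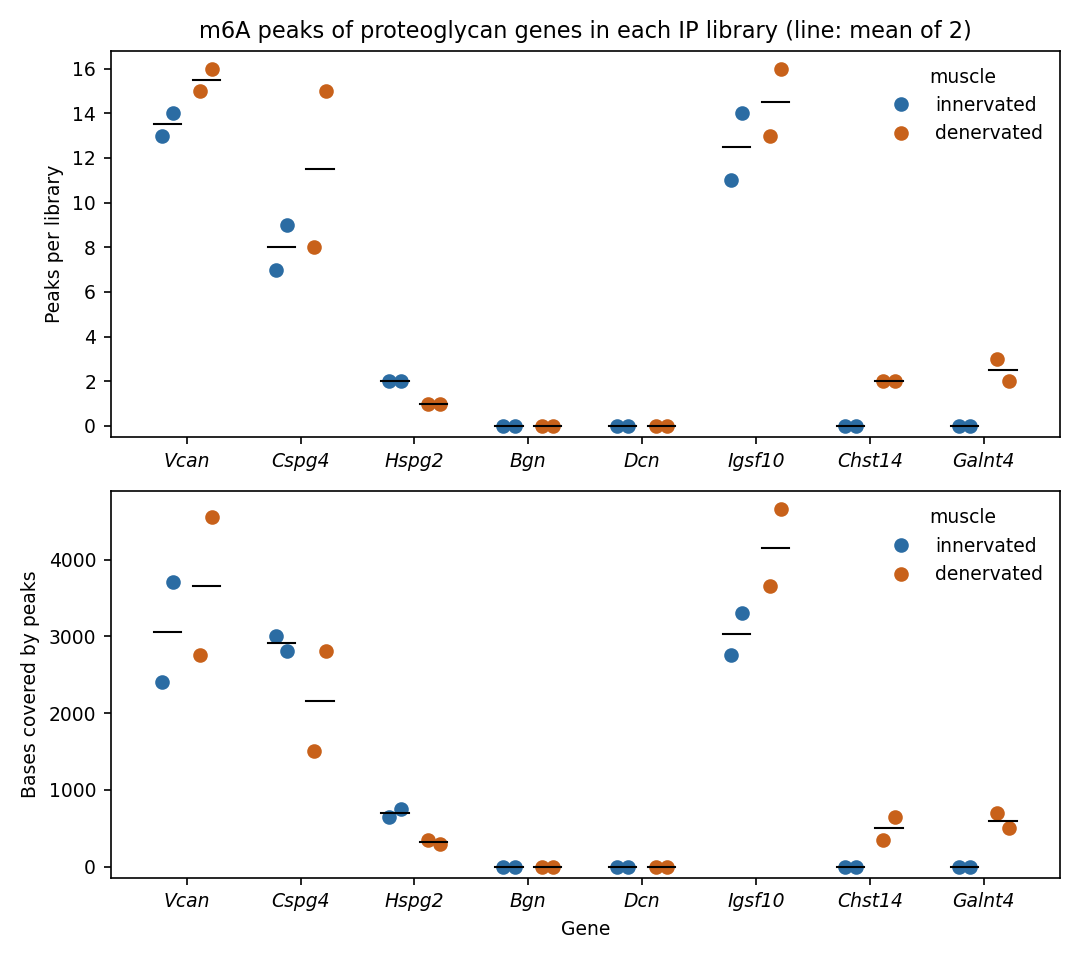
Number of m6A peaks (upper panel) and bases covered by peaks (lower panel) for each of the 8 genes. Each point is 1 IP library, blue for innervated and orange for denervated, and each line is the mean of 2 libraries; Vcan, Igsf10 and Cspg4 held 7 to 16 peaks a library, Hspg2 held 1 or 2, and Bgn and Dcn held 0.

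Linking peaks that overlapped on a strand by 1 base or more gave 48 regions in the 8 genes. Of these, 21 regions (43.8%) were called in all 4 libraries, beside 34.6% of the 13116 regions of all genes. A base common to all 4 libraries was found in 19 of the 21. A further 5 regions (10.4%) were denervated only, beside 3.67% of all regions, and 1 (2.08%) was innervated only, beside 4.20%. These genes were chosen from this contrast, and nothing is read from their shares. Of the 10 regions seen in 1 library alone, 6 were in denervated replicate 2, 3 in denervated replicate 1 and 1 in innervated replicate 2.

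Among the 6 genes with a peak, 4 (Vcan, Cspg4, Hspg2 and Igsf10) were called in all 4 libraries, beside 48.8% of all genes with a peak. Chst14 and Galnt4 were denervated only, beside 3.42% of all genes with a peak. By peak number, 3 genes (Vcan, Chst14 and Galnt4) had more peaks in both denervated than in either innervated library, beside 6.80% of all genes. Hspg2 had fewer, beside 7.63%. Chst14 and Galnt4 had 0 innervated peaks, so their place among the 3 genes repeats the denervated-only call. The members were chosen with these calls known, and nothing is read from their shares.

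Vcan encodes versican, a large chondroitin sulfate proteoglycan of the loose extracellular matrix that binds hyaluronan. The gene spans chromosome 13 from 89655309 to 89743027 on the minus strand of mm10. It carried 13 and 14 peaks in the innervated libraries and 15 and 16 in the denervated libraries. The groups did not overlap, with means of 13.5 ± 0.707 and 15.5 ± 0.707 peaks (SD, n = 2). Of all genes, 6.80% had more peaks in both denervated than in either innervated library. Vcan was chosen with this contrast known, so nothing is read from the difference. Covered bases did overlap, at 2411 and 3711 in innervated and 2760 and 4563 in denervated muscle. By number of peaks over all 4 lists, 58, Vcan ranked 3 among the 5987 genes, with no allowance for transcript length. Of its 13 regions, 7 were called in all 4 libraries, and 0 were denervated only or innervated only. Genes called in all 4 libraries had a median of 1 such region, and 10 genes, Vcan among them, had at least 7. The 7 shared regions of Vcan became 2 with reciprocal overlap of at least 50% and 4 with lists of equal length. They also became 4 when peaks within 200 bases of each other were joined.

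The Vcan peaks fell into 3 clusters that were present in every library. The upstream cluster was a region of 1250 bases on chromosome 13 from 89704496 to 89705745, whose start lay 37282 bases from the 5′ end of the gene. Each library had its own set of 2 to 4 peaks there, and 0 of the 1250 bases were common to all 4. The central cluster held 10 regions, the last of which ended 54641 bases from the 5′ end. Its broadest region lay from 89689385 to 89690534, where denervated replicate 2 had a continuous peak of 1150 bases and the other libraries had 3 or 4 shorter peaks. In that region 604 bases were common to all 4 libraries. A peak of innervated replicate 2 joined the start of this cluster to sequence 9416 bases upstream, across an intron. The last cluster lay within 2 kb of the 3′ end, with regions from 89656459 to 89656759 and from 89656959 to 89657358. The first of these, closest to the 3′ end, had no base common to all 4 libraries, and the second had 150. Beyond these clusters and the far block of that spliced peak, no Vcan peak was called along the 87719 bases of the gene.

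**Figure D2:**
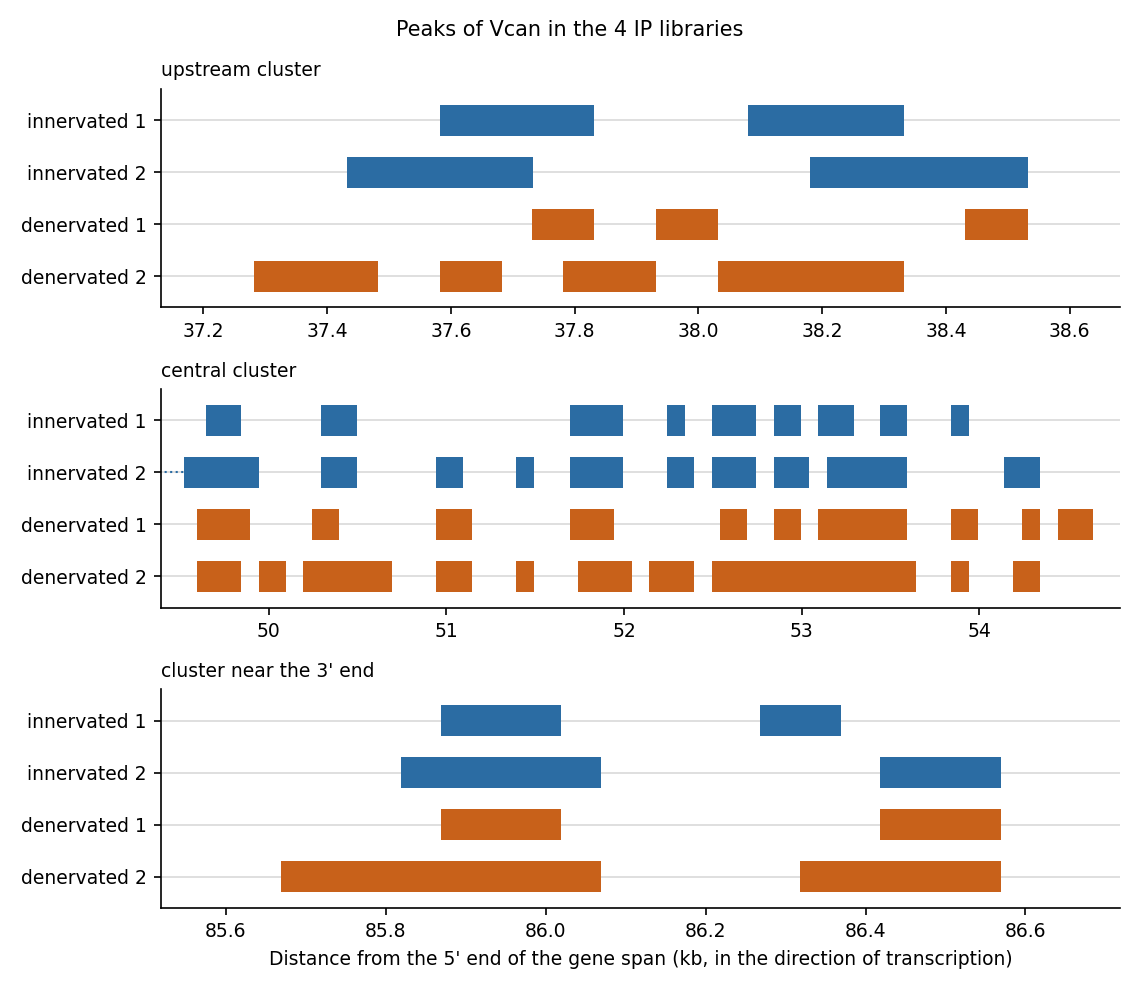
Peaks of Vcan in each IP library, as boxes placed by distance from the 5′ end of the gene in kb; blue is innervated and orange denervated, and a dotted line is an intron inside a peak. Only the 3 stretches that hold peaks are drawn, and the upstream block of the spliced peak of innervated replicate 2 lies outside them; the central cluster is filled in every library, with the longest peak, of 1150 bases, in denervated replicate 2.

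The score that the lists give to each peak is the authors' own value, and what it measures is not given in the sources used here. It ran from 0 to at most 0.023, like a p-value, and was taken here to be small where a peak is strong, which is uncertain. The smallest Vcan score was 0.0014 and 0.00033 in the innervated and 5.6e-05 and 5.2e-05 in the denervated lists. As a percentile of its own list, 100 being the smallest score, it stood at 17.5 and 36.0 in the innervated and at 60.9 and 57.9 in the denervated lists. These percentiles of the smallest score did not overlap between the groups, although the largest score in denervated replicate 1, 0.00074, stood at 26.3. How many of all genes show no overlap in this percentile was not counted. Peaks of a gene often had equal scores, and all 13 Vcan peaks of innervated replicate 1 did.

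Cspg4 encodes the transmembrane chondroitin sulfate proteoglycan of pericytes and glial progenitors. It spans chromosome 9 from 56865104 to 56899870 on the plus strand. It carried 7 and 9 peaks in the innervated and 8 and 15 in the denervated libraries. The groups overlapped, and the denervated libraries differed from each other more than the group means did (8 ± 1.41 and 11.5 ± 4.95, SD, n = 2). In covered bases the order was the opposite, with 3007 and 2809 in innervated and 1508 and 2815 in denervated muscle. Denervated replicate 2 thus covered nearly the same number of bases as innervated replicate 2 with 15 peaks against 9. Its peaks were shorter on average, and denervated replicate 1 was the lowest library.

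Of the 13 Cspg4 regions, 6 were called in all 4 libraries, each with 101 to 252 bases common to all of them, and 25 of all genes had at least as many. A further 5 were seen in 1 library alone, 4 of them in denervated replicate 2. The regions formed a central cluster that began 20593 bases from the 5′ end and a cluster that began 32166 bases from it. The widest shared regions were from 56886547 to 56887697 in the central cluster and from 56897270 to 56897920 in the last one. In the first, innervated replicates 1 and 2 had 1 and 2 peaks, of 851 and 752 bases in all, and denervated replicates 1 and 2 had 2 and 3 peaks, of 402 and 753 bases in all. Over the whole gene, 547 bases were covered in both innervated and neither denervated libraries, and 0 bases in the opposite way. Denervated replicate 1 covered the fewest bases, 1508, and such bases were not counted over all genes, so nothing is read from the contrast. The smallest Cspg4 scores stood at percentiles 33.5 and 91.1 in the innervated and 95.2 and 41.1 in the denervated lists, so that each group held a high and a low list. With either the smaller-score or the larger-score 50% of each list, 0 Cspg4 regions were called in all 4 libraries. The scores fix this result, since neither 50% holds Cspg4 peaks of every library, so it says nothing about how stable the shared regions are. The 6 shared regions became 4 with reciprocal overlap of at least 50%. When peaks within 200 bases of each other were joined, they became 2.

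Hspg2 encodes perlecan, the large heparan sulfate proteoglycan of basement membranes, which also anchors acetylcholinesterase at the neuromuscular junction. It spans chromosome 4 from 137468751 to 137570630 on the plus strand. All of its peaks lay in the last kb of that span of 101880 bases. It carried 2 peaks in each innervated library and 1 in each denervated library. Covered bases were 650 and 750 in innervated and 350 and 300 in denervated muscle, and the groups did not overlap (700 ± 70.7 and 325 ± 35.4, SD, n = 2). How many of all genes show no overlap in covered bases was not counted, so nothing is read from this. The shared region, from 137569632 to 137570081, had 450 bases in both innervated libraries and 350 and 300 bases in the denervated ones. In both denervated libraries it ended 100 bases earlier on the 3′ side, at 137569981. The other region, from 137570181 to 137570480, was innervated only, with 200 and 300 bases, and ended 150 bases before the 3′ end of the gene. It lay 99 bases from the shared region, and its call ended when peaks within 200 bases of each other were joined. The Hspg2 scores stood at percentiles 83.0 and 86.2 in the innervated and 93.7 and 77.3 in the denervated lists, and these overlapped.

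**Figure D3:**
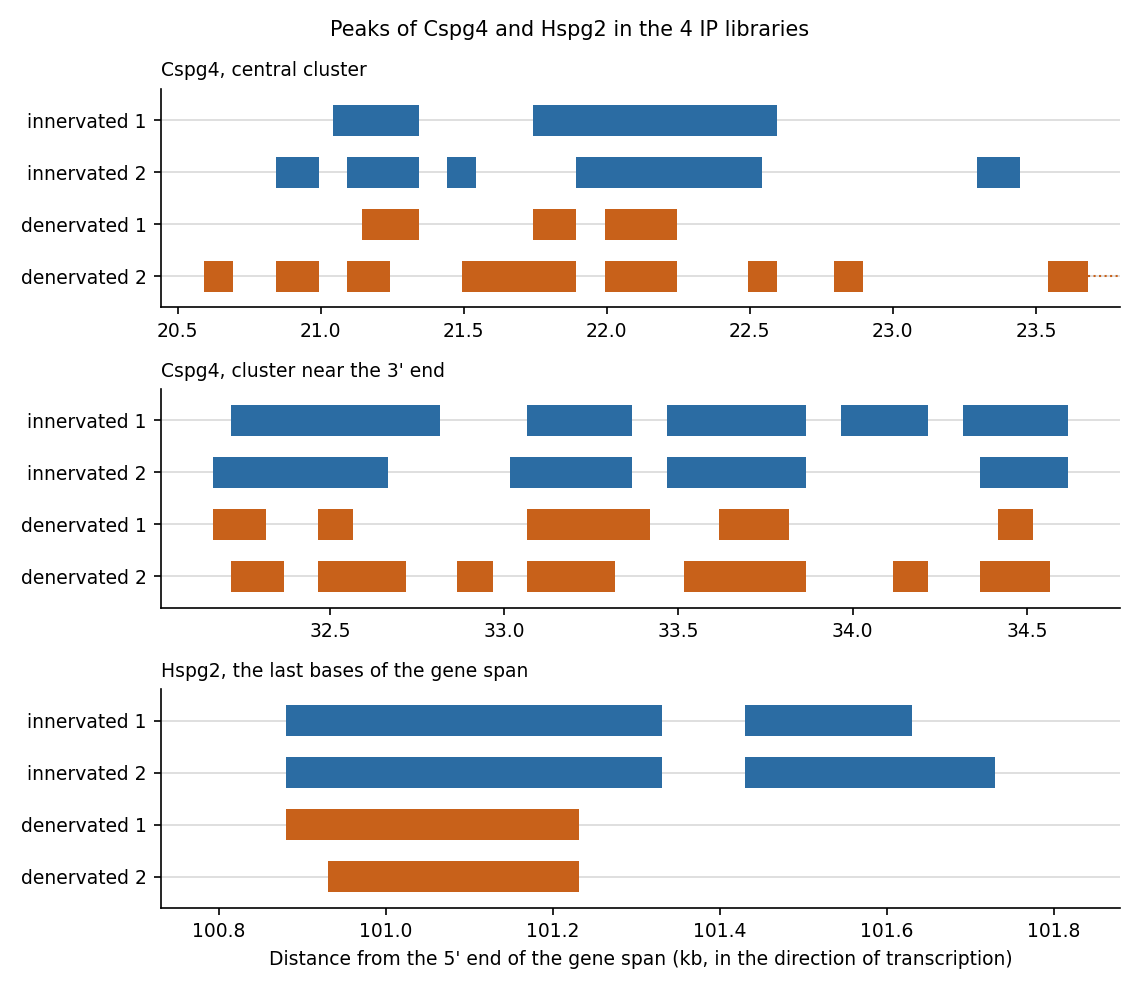
Peaks of Cspg4 (upper and middle panels) and Hspg2 (lower panel) in each IP library, placed by distance from the 5′ end of the gene in kb, with blue for innervated and orange for denervated. The downstream block of the spliced Cspg4 peak of denervated replicate 2 lies outside the panels; the second Hspg2 region is present in both innervated libraries and in neither denervated library.

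Bgn and Dcn encode biglycan and decorin, small leucine-rich proteoglycans that bind collagen and members of the transforming growth factor beta family. Bgn lies on chromosome X from 73483601 to 73495936 and Dcn on chromosome 10 from 97479500 to 97518163. Neither had a peak in any of the 4 lists, and 0 peaks of any other name lay in their spans. Other genes of the same family did carry peaks. Of 14 small leucine-rich proteoglycan genes, Bgn and Dcn included, 6 had a peak in at least 1 library, and Fmod, Kera, Prelp and Omd (fibromodulin, keratocan, prolargin and osteomodulin) were called in all 4. Podn, which encodes podocan, was denervated only, with 3 and 2 peaks.

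Igsf10 encodes a very large secreted protein with immunoglobulin and leucine-rich repeats. It spans chromosome 3 from 59316735 to 59344438 on the minus strand. The plus-strand gene Med12l overlaps its last bases and had 0 peaks in any list. Igsf10 carried 11 and 14 peaks in the innervated and 13 and 16 in the denervated libraries, which overlapped. Covered bases were 2756 and 3307 in innervated and 3656 and 4657 in denervated muscle. These did not overlap, with means of 3031.5 ± 389.6 and 4156.5 ± 707.8 bases (SD, n = 2). The share of all genes without overlap in covered bases was not counted, so nothing is read from this. By number of peaks over the 4 lists, 54, Igsf10 ranked 6 among all genes, with no allowance for transcript length. All of its peaks in a list had the same score, at percentiles 92.9 and 67.4 in the innervated and 94.8 and 59.7 in the denervated lists, so the groups overlapped.

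Of the 15 Igsf10 regions, 7 were called in all 4 libraries, 3 in 3 libraries and 3 in 1 library. The 7 shared regions stayed 7 with reciprocal overlap of at least 50% and became 4 when peaks within 200 bases were joined. Of the bases covered in any library 35.1% were covered in all 4, against 21.5% in Vcan, 26.3% in Cspg4 and 40% in Hspg2. The region from 59330531 to 59331679 had the most bases common to all 4 libraries, 651, in separate pieces of at most 300 bases. The longest unbroken stretch common to all 4, of 350 bases, lay in the region nearest the 3′ end, from 59318083 to 59318582. The most upstream region, from 59336431 to 59339768, was spliced. In 3 of the 4 libraries its peak joined the same exon ends across an intron of 3088 bases, whereas innervated replicate 1 covered the downstream exon alone. The denervated-only region lay from 59329233 to 59329433, with 101 and 201 bases. It stood 98 bases from a region called in 3 libraries, and its call ended when peaks within 200 bases were joined. Bases covered in both denervated and neither innervated libraries came to 400, against 50 in the opposite way. Such bases were not counted over all genes, so nothing is read from this.

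**Figure D4:**
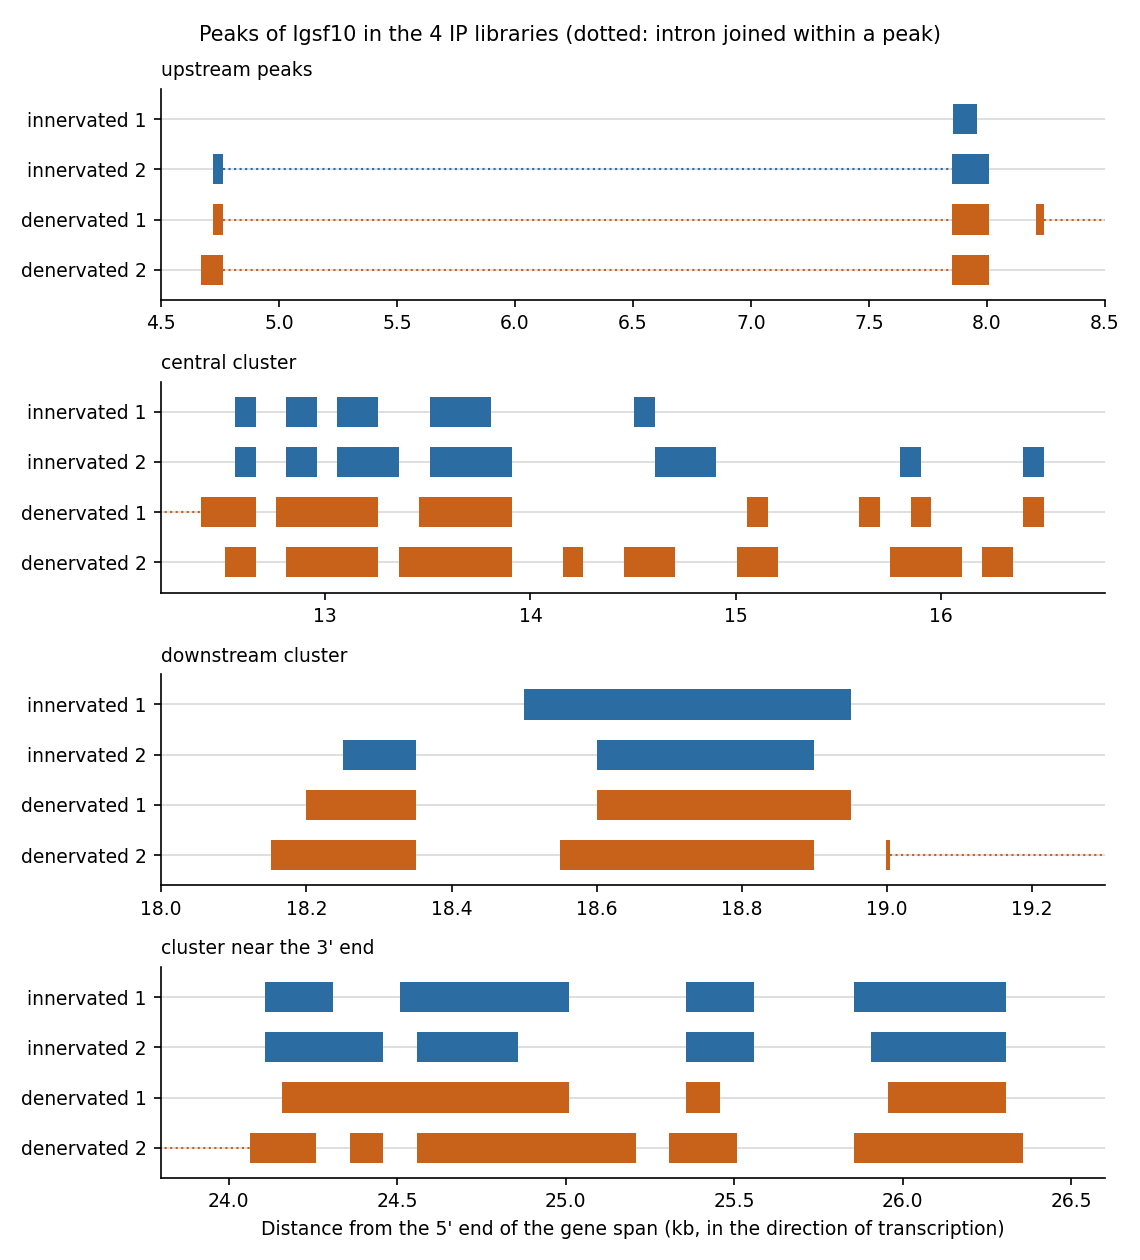
Peaks of Igsf10 in each IP library, placed by distance from the 5′ end of the gene in kb; blue is innervated, orange denervated, and dotted lines are introns inside a peak. Stretches without peaks are left out; the denervated-only region near 15 kb has 101 bases in denervated replicate 1 and 201 in replicate 2.

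Chst14 encodes the sulfotransferase that adds sulfate to dermatan chains, among them those of decorin and biglycan. It is a short gene, of 2089 bases, on chromosome 2 from 118926497 to 118928585 on the plus strand. It had 0 peaks in both innervated lists and 2 in each denervated list. The first region, from 118926845 to 118927093, had 200 and 249 bases in denervated replicates 1 and 2, and both peaks ended at the same base. The second, from 118927937 to 118928335, had 150 and 399 bases and ended 250 bases before the 3′ end of the gene. With reciprocal overlap of at least 50%, 1 of these regions remained denervated only. The scores, 7.1e-08 and 2.7e-07, stood at percentiles 92.9 and 81.8 of their lists.

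Galnt4 encodes an enzyme that attaches N-acetylgalactosamine to serine and threonine, the first step of mucin-type O-glycosylation. This sugar link differs from the xylose link of glycosaminoglycan chains. The gene lies on chromosome 10 from 99108135 to 99113247 on the plus strand, inside the span of Poc1b on the same strand. Reads of these genes may not be separable there, and the lists held 0 peaks under the name Poc1b. Galnt4 had 0 peaks in both innervated lists, 3 in denervated replicate 1 and 2 in denervated replicate 2. Its denervated-only regions lay from 99109078 to 99109425, with 298 and 249 bases, and from 99109872 to 99110170, with 299 and 249 bases. The third region, from 99110418 to 99110517, was in denervated replicate 1 alone. All of them lay in the upstream part of the gene, at least 2730 bases from its 3′ end. The score of 6.3e-15 in denervated replicate 2 stood at percentile 99.2, whereas that in replicate 1 was 2.2e-07.

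**Figure D5:**
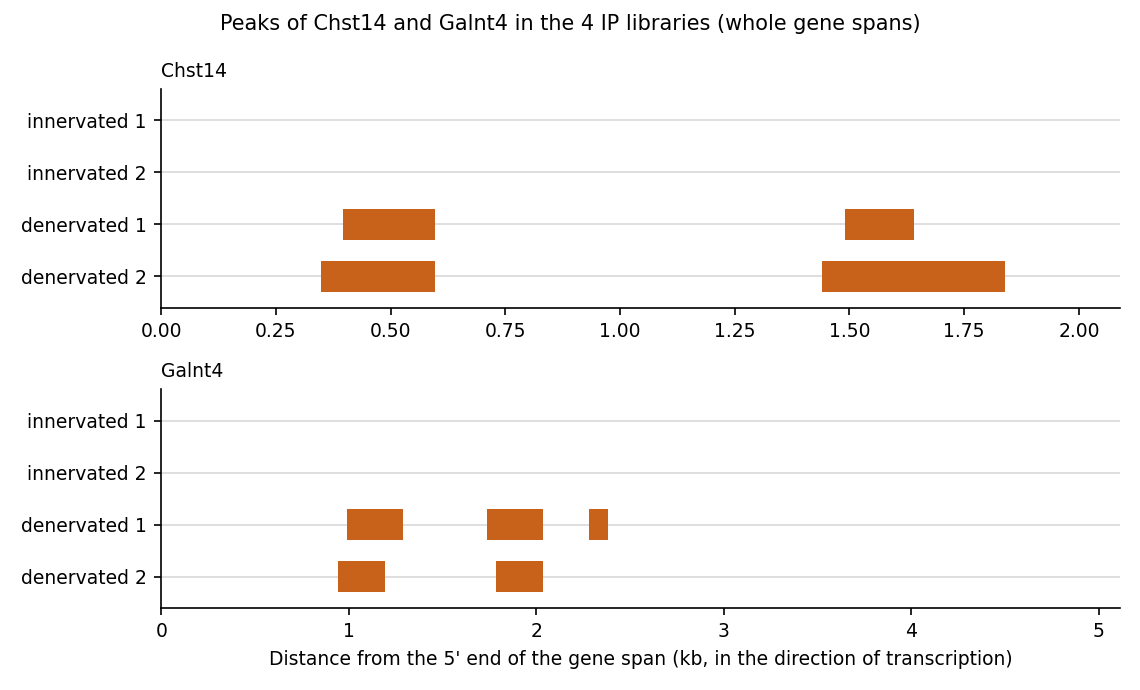
Peaks of Chst14 (upper panel) and Galnt4 (lower panel) in each IP library along the whole gene, by distance from its 5′ end in kb. Both innervated rows are empty; the denervated libraries have 2 peaks each in Chst14, and 3 and 2 in Galnt4.

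Where along the gene the peaks lay differed between the members. Of all placed peaks of a list, 33.8% to 36.8% were centred within 2000 bases of the 3′ end of their gene. For Vcan the share was 12.5% to 15.4% and for Igsf10 it was 6.25% to 9.09%. For Cspg4 it was 33.3% to 57.1%, and for Hspg2 and Chst14 all peaks were in this window in each library that had any. For Galnt4 none were. The Chst14 gene is itself little longer than the window, so its share says little.

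Other genes were counted in 13 lists that also hold all 8 members. The lists cover proteoglycan cores, enzymes of their chains, sulfate supply, mucin-type O-glycosylation, proteases, hyaluronan genes and relatives of Igsf10. Of the 133 genes that are not members, 71 had a peak in at least 1 library, and 42 of these (59.2%) were called in all 4 libraries, beside 48.8% of all genes with a peak. Denervated-only and innervated-only genes numbered 2 and 2 (2.82% of the 71 each), beside 3.42% and 3.14% of all genes.

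The chains are started by the linker enzymes. Of 7 linker genes 4 were called in all 4 libraries: Xylt2, the xylosyltransferase that starts the linker, the galactosyltransferase genes B4galt7 and B3galt6, and the xylose kinase gene Fam20b. Of 8 chondroitin and dermatan chain genes 6 were called in all 4 libraries, among them Chsy1, Chpf, Chpf2 and Csgalnact1, which encode chondroitin polymerases and an initiating transferase. Dsel, an epimerase gene of dermatan synthesis, was denervated only, with 2 and 6 peaks. Of the 5 Dsel regions, 2 were denervated only. Dsel was named for this pattern, which Chst14 was known to share. That both were called in the same libraries follows from this choice, and a link between them was not tested. The Dsel paralogue Dse, named here after its values were seen, was called in all 4 libraries. It had 3 and 4 innervated and 5 and 4 denervated peaks. Of 8 chondroitin and dermatan sulfotransferase genes, Chst14 included, Chst12 and Chst15 were called in all 4 libraries.

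Of 23 heparan sulfate enzyme genes, 13 were called in all 4 libraries, including Ext1 and Ext2, the chain polymerase, and their relatives Extl1 and Extl2. Hs3st5, a heparan sulfate 3-O-sulfotransferase gene, was innervated only, with 1 peak in each list. Of 11 cell surface heparan sulfate proteoglycan genes, 3 were called in all 4 libraries, namely the glypican genes Gpc1 and Gpc4 and Tgfbr3, which encodes betaglycan. Of the 7 large chondroitin sulfate cores, the members Vcan and Cspg4 were the only ones with a peak. Of 7 basement membrane and pericellular heparan sulfate proteoglycans, Hspg2 was the only one called in all 4 libraries.

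Of 21 genes of mucin-type O-glycosylation, Galnt4 included, 6 were called in all 4 libraries, among them Galnt1, Galnt2, Galnt7 and Galnt17, and Galnt4 alone was denervated only. Of 7 proteases known to cleave proteoglycans, Adamts1, Adamts5 and Adamts15 were called in all 4 libraries. Of 7 sulfate supply genes and 11 hyaluronan genes, 5 and 5 had a peak and 0 were called in all 4 libraries. Of 10 relatives of Igsf10, which include Igsf10 itself, Islr was called in all 4 libraries, and Islr2 was innervated only, with 3 and 5 peaks.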

How the data were processed

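m6A-captured (IP) and input RNA of gastrocnemius were sequenced, and the authors deposited 4 peak lists, 1 per IP library against its matching input, not pooled. The peak score is the authors' deposited value, named so per the file headers. The submitters' processing notes name mm10, STAR 2.4.2a and ChIPseeker, and no peak caller or threshold was found in the labels. Of single-block peaks, 70.8% to 72.8% had lengths within 1 base of a multiple of 50 bases, so edges moved in coarse steps. Python 3.11.15 and pandas 2.3.3 were used. Peaks of all genes were linked where their blocks, introns aside, overlapped on a strand by at least 1 base. The linking was tested on simulated regions that lay far apart, with at most 1 peak per library. It was not tested on several close peaks of a library, as in Vcan. Members were found by the gene name in the lists. Gene spans came from RefSeq GRCm38.p6, the assembly of mm10, where all 8 members matched. Genome sequence and exon annotation were not used here. All 8 members were named, and of each other list the first 4 genes called in all 4 libraries and the first 4 called in a single group. Members and lists were chosen with earlier results of these data known. No test was run on the members, and 2 libraries against 2 could not give an exact permutation p below 0.333. Spreads between replicates may be technical. Alternatives varied the overlap, the score, list length, gene assignment, strand and the libraries used.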

Additional observations from a re-analysis of the deposited data

How the results depend on the processing

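Of the 6 summary results, assignment by gene span, overlap on either strand and equal numbers of peaks per list changed none by more than 1.5 times or by more than the spread between replicates. With reciprocal overlap of at least 50%, innervated-only regions numbered 6 instead of 1. Denervated-only regions then numbered 7 instead of 5, and 14 instead of 21 regions were called in all 4 libraries. The choice of scores changed most. Keeping in each list the smaller-score 50% of peaks, 8 regions were called in all 4 libraries, 13 were denervated only, and the difference in peak number was 19.5 peaks. Vcan then had no peak in the innervated lists and joined the denervated-only genes, 3 in all. Keeping the larger-score 50%, 0 regions were called in all 4 libraries, 0 were denervated only and 9 innervated only. In that setting 0 genes were denervated only, and the differences reversed to −8.5 peaks and −3006.5 bases. Hspg2, Igsf10, Chst14 and Galnt4 have small scores in every list that holds them and drop out by construction. Only peaks of Vcan and Cspg4 remained, so these values follow from where the scores of those genes lie. Why the scores lie there was not tested. Leaving out each library in turn gave 23 to 25 regions called in all remaining libraries, 6 to 11 denervated-only and 1 to 3 innervated-only regions, 2 denervated-only genes, a difference of 6 to 16 peaks, and one of −379.5 (without denervated replicate 2) to 3780.5 bases. Leaving out a library loosens each definition. Joining peaks within 200 bases, chosen after seeing the data, left 11 regions in all 4 libraries and 0 innervated only; requiring a base common to all 4 libraries, also added then, left 19. No paired analysis was possible because the labels do not say what a replicate number marks, and no test was run on the members. Taken by number, denervated minus innervated was 9 and 13 peaks and 497 and 2904 bases over all members, 2 and 2 peaks in Igsf10, 349 and 852 bases in Vcan, and −1499 and 6 bases in Cspg4. Depth was unknown, so a missing peak may be a transcript too scarce to call.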
